A study of Mus musculus with 12 samples.

Results

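The genes described here encode receptors, bridging proteins and an adaptor that macrophages use to find and take up dying cells: Mertk, Axl, Gas6, Pros1, Cd5l, Timd4, Mfge8, Lrp1, Dab2 and Trem2. They were chosen by name, and all 10 had a row among the 43253 gene symbols of the expression matrix. The libraries came from thioglycolate-elicited peritoneal macrophages (PMφs) of wild-type C57BL/6J mice, which are cells that enter the peritoneal cavity after an injected irritant. There were 12 libraries in 4 groups of 3: untreated control cells, cells given 100 µg/ml of oxidized low-density lipoprotein (oxLDL) for 24 h, cells given 10 ng/ml of LPS, and cells given oxLDL and then LPS (oxLDL+LPS). The length of the LPS stimulation for these libraries is not given in the sources used here. Male and female littermates of 8 to 12 weeks were used, and the cells of up to 10 mice from 1 or 2 litters were pooled before the pool was divided among the groups. A library therefore reads a pool of animals, and the same replicate number in different groups shares a pool.

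Uptake of dying cells, or efferocytosis, starts when phosphatidylserine appears on the outer face of a dying cell. Some receptors bind this lipid directly, as TIM-4 (the product of Timd4) does. The TAM receptor kinases, MERTK, AXL and TYRO3, reach it through the bridging proteins GAS6 and protein S (Pros1), and integrins reach it through MFG-E8 (Mfge8). LRP1 is a large endocytic receptor, DAB2 is a clathrin adaptor that binds LRP1 and related receptors, TREM2 senses lipids and signals through DAP12, and CD5L is a secreted macrophage protein that binds dying cells and debris. In atherosclerotic plaques, where macrophages take up oxidized lipoproteins, failed clearance of dying cells is linked to growth of the necrotic core.

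To show the DNA next to the start sites of these genes, the 250 bases before each start site were read from RefSeq (GRCm38.p6). All 10 genes matched and gave 11 windows, because Dab2 has 2 start sites. Each window is written 5′ to 3′ on the strand given for its gene. As a check of the strand, bases after the start site were found in a GENCODE transcript of the same gene for 9 of the 11 windows. Shown are 5 genes whose levels differed with LPS, namely the TAM receptors Mertk and Axl, their ligand Gas6, the direct lipid receptor Timd4 and the lipid sensor Trem2, and capitals mark every match to 1 of 8 short motifs.
Mertk (chr2:128698665-128698914, plus strand): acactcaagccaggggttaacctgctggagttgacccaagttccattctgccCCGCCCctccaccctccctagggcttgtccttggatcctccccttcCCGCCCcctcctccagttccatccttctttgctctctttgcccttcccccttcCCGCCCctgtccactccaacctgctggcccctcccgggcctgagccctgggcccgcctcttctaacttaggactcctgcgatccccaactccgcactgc
Axl (chr7:25788734-25788983, minus strand): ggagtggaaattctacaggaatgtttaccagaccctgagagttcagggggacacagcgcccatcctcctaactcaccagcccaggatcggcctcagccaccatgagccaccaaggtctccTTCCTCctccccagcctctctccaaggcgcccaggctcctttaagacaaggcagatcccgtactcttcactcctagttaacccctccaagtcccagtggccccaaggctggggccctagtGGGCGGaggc
Gas6 (chr8:13494536-13494785, minus strand): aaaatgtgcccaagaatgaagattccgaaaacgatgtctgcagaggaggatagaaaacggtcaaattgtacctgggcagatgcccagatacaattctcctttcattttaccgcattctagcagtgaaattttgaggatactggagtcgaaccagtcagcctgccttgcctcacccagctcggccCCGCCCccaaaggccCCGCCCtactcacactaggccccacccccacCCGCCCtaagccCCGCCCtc
Timd4 (chr11:46810549-46810798, plus strand): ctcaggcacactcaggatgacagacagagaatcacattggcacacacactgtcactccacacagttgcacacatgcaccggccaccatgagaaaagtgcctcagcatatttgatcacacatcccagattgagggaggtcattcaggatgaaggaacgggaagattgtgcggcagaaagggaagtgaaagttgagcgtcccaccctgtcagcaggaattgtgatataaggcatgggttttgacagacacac
Trem2 (chr17:48346151-48346400, plus strand): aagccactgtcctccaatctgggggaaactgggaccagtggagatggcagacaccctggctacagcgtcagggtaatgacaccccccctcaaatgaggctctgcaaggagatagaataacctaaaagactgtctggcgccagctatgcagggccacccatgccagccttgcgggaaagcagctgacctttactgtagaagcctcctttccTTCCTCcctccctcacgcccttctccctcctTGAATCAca
The motifs, searched on both strands, were the AP-1 motif TGANTCA, the interferon-stimulated response element and the NF-kB motif by their names, the ETS motif GAGGAA, the C/EBP motif TTGCNNAA, the GC box GGGCGG, the LXR element by its name and the TATA motif TATAAA. The capitals are 3 GC boxes in Mertk, an ETS motif and a GC box in Axl, 4 GC boxes in Gas6, and an ETS and an AP-1 motif in Trem2. The Timd4 window held no match to any of the 8. A GC box stood in the windows of Axl, Gas6, Lrp1, Mertk, Mfge8 and Pros1, against 32.7% of all 32851 windows of this length. An ETS motif stood in those of Axl, Cd5l, Dab2, Mfge8 and Trem2, against 23.3% of all windows. The match to the AP-1 letters in Trem2, which ended close to the start site, was the only one among the 11 windows (6.75% of all windows). It has A at its middle letter, where the searched pattern allows any base. A C/EBP motif was found in 1 Dab2 window (9.56% of all). The NF-kB, interferon, LXR and TATA letters were in none of the 11 windows, against 7.25%, 2.98%, 0.0152% and 12.4% of all windows. Matches of different motifs did not overlap. A match describes the letters of a window and nothing about binding.

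The expression values are read counts that the authors divided by 1 factor per library and rounded, called normalized counts here. The spacing of the values gave 0.763 to 1.41 normalized counts for 1 read, and 16.7 to 26.1 M reads per library. The libraries summed to 17125855 to 17681391 normalized counts without LPS and to 22036161 to 26343382 with LPS. Il1b, the gene for a cytokine that LPS induces, stood between 7 and 20 in the control group and between 51068 and 152939 in the LPS group. Macrophage markers were abundant in every library, with Cd68 between 35765 and 51371. The summed markers of dendritic cells, B cells, T cells, neutrophils, eosinophils and mast cells did not pass 387 in any library. Markers of mesothelial cells and fibroblasts summed to 5432 to 32024 and differed by pool, since replicate 1 had the highest sum and replicate 3 the lowest in all 4 groups. Among markers of resident large peritoneal macrophages, Gata6 stood between 90 and 424. It was lowest in replicate 3 in all 4 groups, as was the mesothelial and fibroblast sum, and which cells it came from was not tested. In bulk RNA, fewer cells of a type and less RNA per cell cannot be told apart.

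Per kilobase of exon, the order of the 10 genes was led by Mfge8 in every group. In control PMφs, Mfge8 stood at 16101 ± 3653 normalized counts per kb (SD, n = 3), followed by Trem2 at 2507 ± 270 and Lrp1 at 2151 ± 426, whose ranges overlapped. Cd5l, Mertk and Gas6 formed the middle at 753 ± 330, 573 ± 75.8 and 464 ± 66.2 per kb, each range overlapping the next. Pros1 at 316 ± 31.3 and Axl at 259 ± 22.0 per kb also overlapped at their ends. Dab2 at 118 ± 15.3 and Timd4 at 4.14 ± 2.87 per kb were the lowest and were separate from each other. The TAM receptor genes Axl and Mertk changed place with LPS. Axl came next after Mfge8 at 2563 ± 238 per kb, followed by Mertk at 1443 ± 366. Trem2 followed at 1235 ± 143 with a range that overlapped that of Mertk, and Gas6 was above only Timd4 at 185 ± 47.1.

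**Figure D1:**
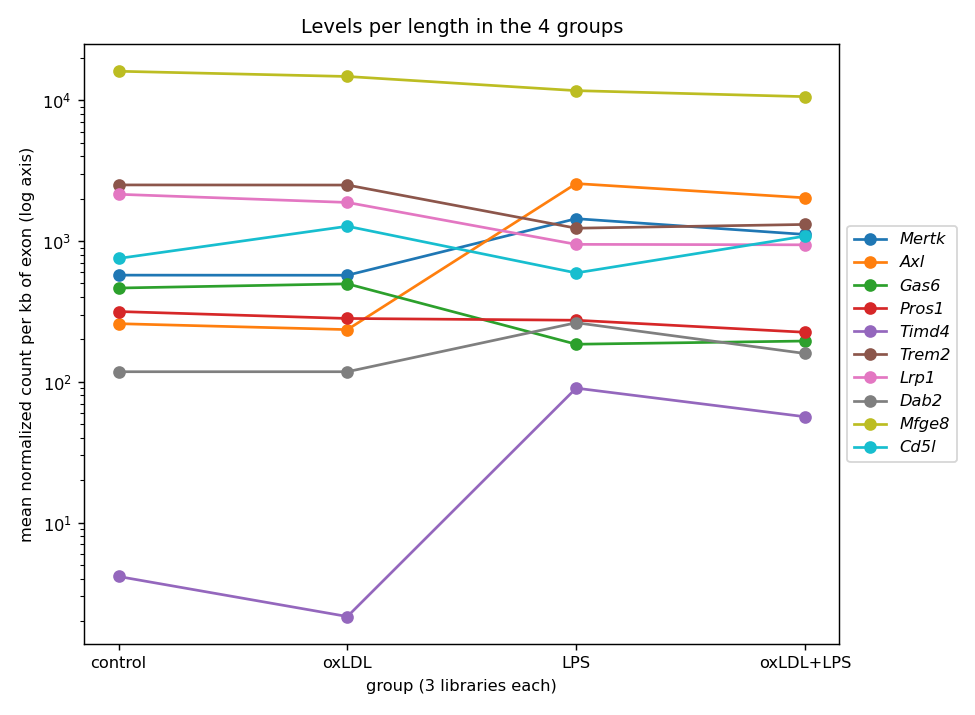
Mean level of each gene in the 4 groups, in normalized counts per kb of exon on a log axis (mean of 3 libraries per point, lines join the points of a gene). Axl goes from 259 per kb in control PMφs to 2563 with LPS, while Mfge8 is the highest in every group and Timd4 the lowest.

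The first question was how LPS changed these genes, in cells without oxLDL and in cells with it. LPS raised Axl and Mertk in both settings and lowered Gas6, Lrp1 and Trem2 in both. In limma's moderated test on log2(normalized count + 1), with Benjamini-Hochberg adjustment over all genes tested, 4 of the 10 genes were higher and 3 lower in LPS than in control at an adjusted p under 0.1. Over all 13006 genes tested, 31.4% were higher and 30.3% lower in that comparison, so the count of members lies near the background. For oxLDL+LPS against oxLDL, 3 members were higher and 3 lower, against 28.1% and 26.3% of 12883 genes. When the shared pools were entered as a replicate block, 4 members were higher and 6 lower with LPS (34.6% and 34.1% of all genes), and 3 were higher and 6 lower with LPS after oxLDL (32.0% and 31.4%). The groups did not overlap for 7 members in LPS against control (63.2% of all genes) and for 6 in oxLDL+LPS against oxLDL (57.6%). Timd4 entered these tests only through its LPS libraries, because its values without LPS were mostly under the minimum of 10, so its values are given as a description and its count as a called gene carries no weight. Of the other 9 members, 3 were higher and 3 lower with LPS, and 2 were higher and 3 lower with LPS after oxLDL. The groups did not overlap for 6 and 5 of these 9. Their median log2 fold change was -0.35 in LPS against control, where that of all genes was 0.00.

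Axl, which encodes a TAM receptor kinase (7:25757273-25788705, minus strand, GRCm38), had 1428, 1268 and 1216 normalized counts in control replicates 1 to 3 and 11519, 13608 and 13574 with LPS. The oxLDL libraries had 1407, 1189 and 949, and the oxLDL+LPS libraries had 8190, 13470 and 8987. Every library with LPS was above every library without it. The log2 fold change was 3.30 (SE 0.11, limma adjusted p = 4.06e-07) in LPS against control, or 9.88-fold. After oxLDL it was 3.09 (SE 0.21, limma adjusted p = 3.11e-05), or 8.54-fold.

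Mertk, the TAM receptor with the best known role in uptake of dying cells by macrophages (2:128698956-128802894, plus strand), had 2199, 2416 and 2845 normalized counts in control and 5859, 4905 and 8006 with LPS. With oxLDL alone it had 2204, 2427 and 2805, and with oxLDL+LPS 4122, 4672 and 5715. The groups with and without LPS were again separate. The rise with LPS was 1.31 (SE 0.19, limma adjusted p = 6.53e-04) on the log2 scale, and 0.96 after oxLDL (SE 0.14, limma adjusted p = 0.00132). The antisense gene Gm14011, which overlaps Mertk, did not pass 21 in any library. Tyro3, the other TAM receptor, was low in all groups, with 9 to 20 normalized counts in control and 15 to 21 with LPS, a log2 difference of 0.22 (limma adjusted p = 0.654).

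The ligands of these receptors did not follow them. Gas6, which encodes a vitamin K-dependent bridging protein (8:13465374-13494490, minus strand), had 1337, 1003 and 1210 normalized counts in control and 610, 407 and 398 with LPS. It had 1388, 1010 and 1401 with oxLDL and 555, 456 and 476 with oxLDL+LPS, so no library with LPS reached the lowest library without it. Gas6 fell by 1.34 on the log2 scale with LPS in both settings (SE 0.19, limma adjusted p = 6.10e-04, and after oxLDL SE 0.15, limma adjusted p = 3.24e-04). The gene that overlaps Gas6 on the other strand, Tmem255b, was at 0 in all 12 libraries.

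Pros1, which encodes protein S (16:62854307-62929346, plus strand), changed little. It had 1145, 1386 and 1340 normalized counts in control, 1043, 1375 and 1040 with oxLDL, 1063, 1193 and 1099 with LPS, and 891, 1062 and 803 with oxLDL+LPS. Its groups overlapped in both LPS comparisons. The log2 difference was -0.20 (SE 0.10, limma adjusted p = 0.137) in LPS against control and -0.32 (SE 0.15, limma adjusted p = 0.116) after oxLDL. With the replicate block both passed the threshold (limma adjusted p = 0.0727 and 0.0117). The first of these calls was lost without the pool of replicate 2 (limma adjusted p = 0.205) or of replicate 3 (0.346), and the second without that of replicate 3 (0.110).

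Timd4, a direct phosphatidylserine receptor that marks many resident tissue macrophages (11:46810800-46844332, plus strand), was close to the detection limit without LPS. Control PMφs had 4, 7 and 16 normalized counts and oxLDL PMφs 1, 9 and 4, where 1 count is about 1 read. With LPS it had 230, 152 and 206, and with oxLDL+LPS 134, 137 and 97. Every library with LPS was above every library without it. The log2 difference with LPS was 4.46 on the log2(value + 1) scale and 3.92 with a pseudocount of 5. After oxLDL it was 4.72, and 3.79 with a pseudocount of 5 or 4.11 without oxLDL replicate 1. Because the values without LPS are so low, the size of the difference depends on the pseudocount, and no test is given for it. Its level with LPS was still the lowest of the 10 per kb, at 90.2 ± 18.4 (SD, n = 3).

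Trem2 (17:48346401-48354147, plus strand) went the other way. It had 10874, 12962 and 13365 normalized counts in control, 11161, 13542 and 12425 with oxLDL, 5301, 6621 and 6406 with LPS, and 6321, 6997 and 6161 with oxLDL+LPS. The lowest library without LPS was above the highest with it. Trem2 fell by 1.02 (SE 0.13, limma adjusted p = 3.64e-04) with LPS and by 0.93 (SE 0.11, limma adjusted p = 3.36e-04) after oxLDL on the log2 scale.

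Lrp1, the endocytic receptor (10:127538161-127621148, minus strand), had 33890, 46827 and 33623 normalized counts in control and 17089, 18547 and 14728 with LPS. With oxLDL it had 28100, 38985 and 32943, and with oxLDL+LPS 16991, 17796 and 15247, again without overlap between cells with and without LPS. It fell by 1.17 (SE 0.17, limma adjusted p = 7.52e-04) with LPS and by 0.99 (SE 0.15, limma adjusted p = 0.00131) after oxLDL.

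Dab2, the adaptor that binds receptors such as LRP1 (15:6299788-6440712, plus strand), did not share the direction of Lrp1. Control PMφs had 959, 893 and 740 normalized counts and LPS PMφs 1730, 2463 and 1596, a rise of 1.14 on the log2 scale (SE 0.18, limma adjusted p = 0.00109). After oxLDL, which gave 933, 855 and 805 alone, oxLDL+LPS gave 1063, 1623 and 813. Replicate 3 with oxLDL+LPS lay among the oxLDL libraries, and the log2 difference was 0.38 (SE 0.23, limma adjusted p = 0.225). It passed the threshold without that library (0.61, limma adjusted p = 0.0435) and was 0.11 without oxLDL+LPS replicate 2 (limma adjusted p = 0.561). Within the pools, the LPS difference after oxLDL was 0.19, 0.92 and 0.01, against 0.85, 1.46 and 1.11 without oxLDL.

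Mfge8 (7:79133768-79149060, minus strand) was the most abundant and spread widely between pools. It had 66693, 95345 and 64691 normalized counts in control, 64155, 92922 and 51042 with oxLDL, 35603, 78463 and 51049 with LPS, and 36389, 72097 and 41133 with oxLDL+LPS. Replicate 2 was the highest in each group. The log2 difference with LPS was -0.51 (SE 0.31, limma adjusted p = 0.196) and after oxLDL -0.50 (SE 0.32, limma adjusted p = 0.242). With the block, which removes the difference between pools, Mfge8 was lower in both (limma adjusted p = 0.0278 and 0.0197), and each pool was lower with LPS. Without LPS replicate 2 it passed the threshold with no block (-0.80, limma adjusted p = 0.0351), as it did after oxLDL without oxLDL+LPS replicate 2 (-0.80, limma adjusted p = 0.0455). It was smaller without LPS replicate 1 (-0.23, limma adjusted p = 0.478) or control replicate 2 (-0.33, limma adjusted p = 0.462). After oxLDL it was smallest without oxLDL replicate 2 (-0.27, limma adjusted p = 0.564).

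Cd5l (3:87357881-87371073, plus strand) differed between pools more than with LPS. It had 2196, 852 and 1549 normalized counts in control and 1791, 658 and 1177 with LPS, with replicate 2 the lowest of each group. The log2 difference was -0.35 (SE 0.43, limma adjusted p = 0.516), and it was 0.03 without LPS replicate 2. Within the pools it was -0.29, -0.37 and -0.40, and with the block Cd5l was lower with LPS (SE 0.08, limma adjusted p = 0.00757). After oxLDL the within-pool differences were 0.09, -0.47 and -0.60 (block SE 0.14, limma adjusted p = 0.0847). That call was lost without the pool of replicate 2 (limma adjusted p = 0.243) or of replicate 3 (0.412).

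**Figure D2:**
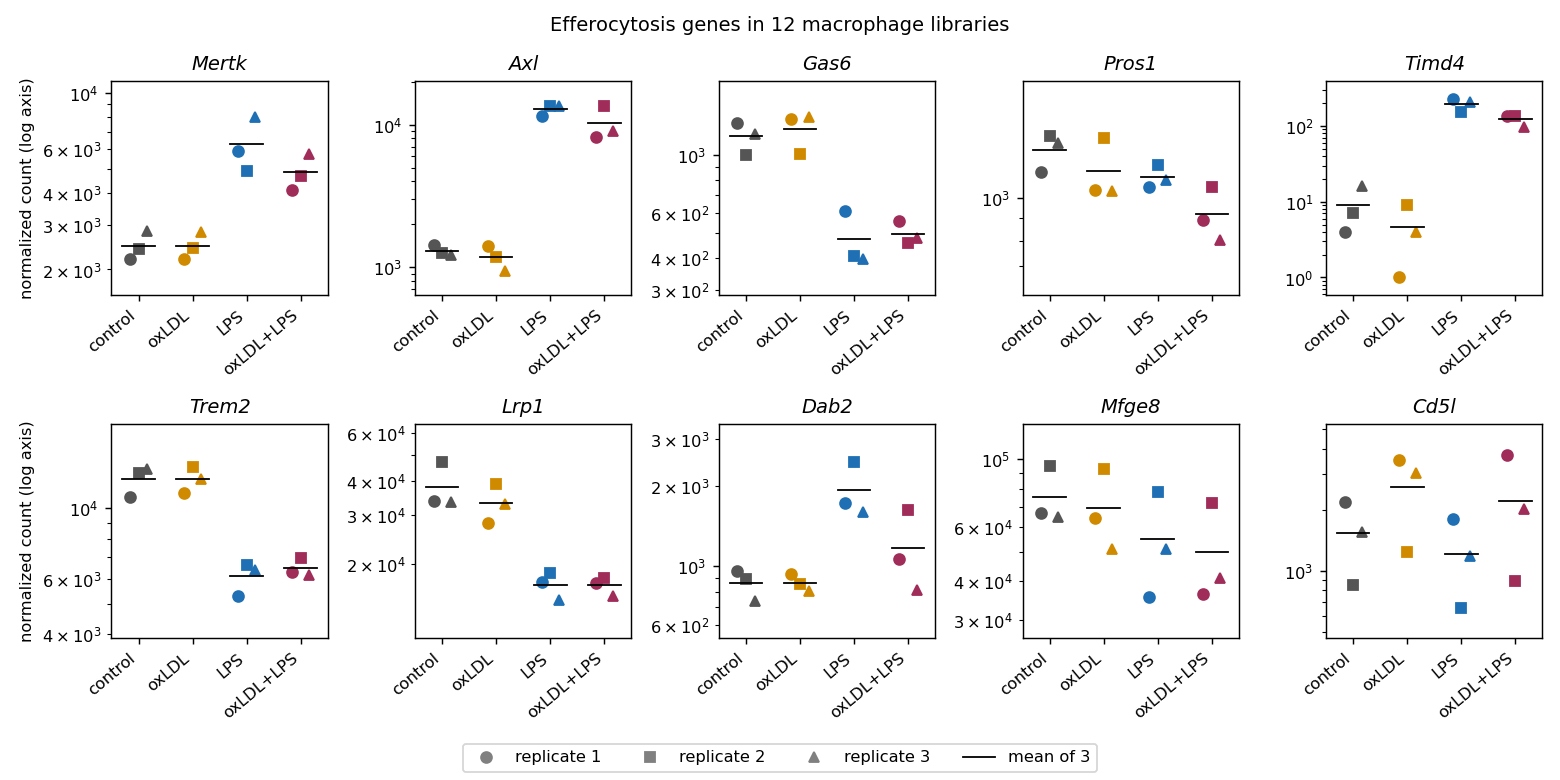
Normalized counts of the 10 genes in each of the 12 libraries on log axes, 1 panel per gene (circles, squares and triangles are replicates 1, 2 and 3, and bars are means of 3). Axl, Mertk and Timd4 lie higher and Gas6, Lrp1 and Trem2 lower in every library with LPS, while Cd5l and Mfge8 spread by replicate number within each group.

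The directions rest on how the libraries were set on 1 scale. Set to equal totals, the median log2 fold change of all genes was -0.48 in LPS against control, and 2170 genes were higher and 7215 lower, in place of 4087 and 3938. After oxLDL the shift was -0.41, with 2028 higher and 6651 lower in place of 3626 and 3389. The members called in LPS against control kept their direction and call, with Dab2 at 0.66 (limma adjusted p = 0.0207) and Mertk at 0.83 (limma adjusted p = 0.00273) as the smallest rises. Pros1 and Mfge8 were then lower in both comparisons, at -0.69 and -0.99 with LPS, and Dab2 after oxLDL was -0.01. An exact two-sided permutation test of 3 against 3 libraries cannot go below p = 0.1, which is the value of each member whose groups did not overlap. The summed markers of monocytes and small peritoneal macrophages were 10979 to 23777 in control and 19728 to 49884 with LPS, but nearly all of this sum was Fn1, with means of 18069 and 31117. Ccr2, the chemokine receptor gene of that list, went the other way, from a mean of 75.7 to 16.3. Ly6c2, also of that list, had 1, 1 and 0 normalized counts in control and 296, 32 and 284 with LPS. It entered the test only through its LPS libraries. Of the 5 genes of the list that were tested, 1 was higher and 1 lower, with a median log2 fold change of 0.21. The summed markers of large peritoneal macrophages were 10250 to 13287 in control and 3120 to 3585 with LPS, a fall that lay almost wholly in Cd93. Of the 8 genes of that list, 2 passed as higher and 1 as lower, and the median log2 fold change was 0.41. Means in that list went from 43.3 to 84.7 for Selp, from 94.3 to 239 for Ltbp1 and from 72.3 to 96.7 for Icam2. The means of F5 and Alox15 were also higher with LPS. Those of Gata6 and Vsig4 were lower, going from 303 to 242 and from 204 to 192. Adgre1, the F4/80 gene, went from 5252 to 8561 in control to 12995 to 29157 with LPS. The part of these markers in the changes above was not tested.

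**Figure D3:**
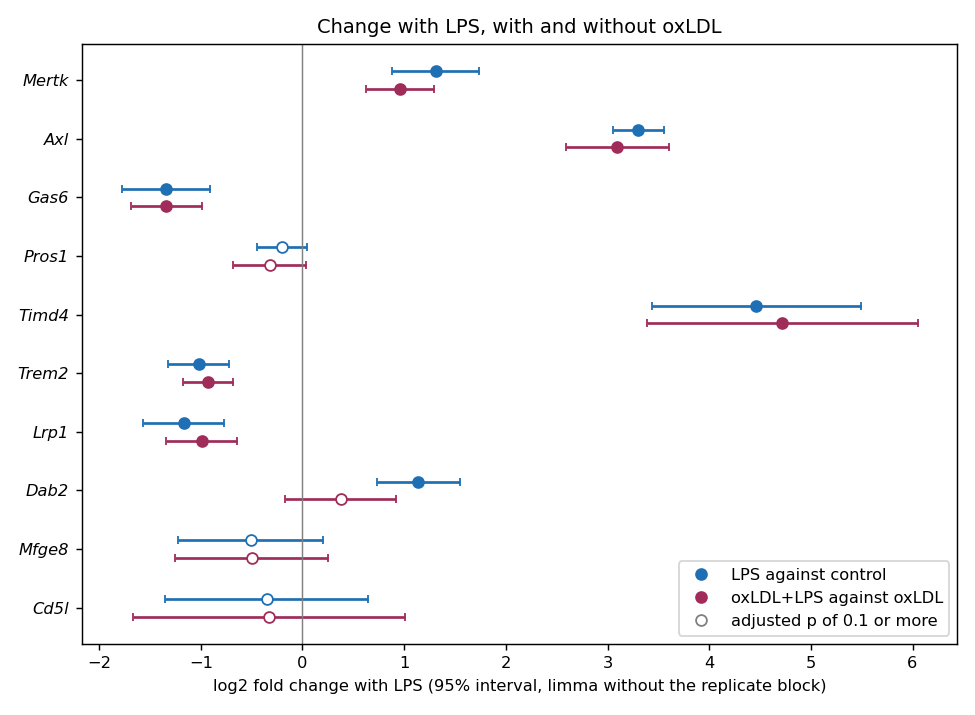
Log2 fold change with LPS for the 10 genes, without oxLDL (LPS against control) and with it (oxLDL+LPS against oxLDL), with 95% intervals from limma without the replicate block. Filled points passed an adjusted p of 0.1, which 7 genes did without oxLDL and 6 with it, Dab2 being the difference between the sets. Timd4 is among them only through its LPS libraries, and its place on the axis depends on the pseudocount.

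The second question was whether oxLDL alone changed the genes. None of the 9 members tested passed the limma test without the block, where 0% of 12734 genes were higher and 0% lower, although 379 genes had an unadjusted p under 0.05. No member had groups without overlap (7.69% of all genes). With the block, 1 member was higher and 0 lower, against 1.79% and 2.91% of all genes. That member was Cd5l, with 3509, 1232 and 3044 normalized counts with oxLDL against 2196, 852 and 1549 in control. Each pool rose, by 0.68, 0.53 and 0.97 on the log2 scale, with a mean of 0.73 (block SE 0.07, limma adjusted p = 6.69e-04; without the block SE 0.46 and adjusted p = 1.00). Cd5l was also called with the block when any 1 pool was left out. Such fits leave very little spread to measure, so their p-values rest largely on the variance taken from all genes. Without replicate 3 this fit called 531 genes higher and 752 lower, against 228 and 371 with all pools. These calls therefore add little to the one above. Mertk, Trem2 and Dab2 differed by 0.00, 0.00 and 0.01, and the 95% intervals with the block were -0.10 to 0.09, -0.12 to 0.12 and -0.11 to 0.13. The other members tested lay between -0.19 for Lrp1 and 0.09 for Gas6. Lrp1 was called lower only in the fit with the block and without replicate 3, at -0.27, and the same limit holds for it. Timd4 was under the minimum and was not tested. As treatment checks, Cd36, a scavenger receptor for oxLDL, rose by 0.93 and Hmox1, an oxidative stress gene, by 0.62 with the block (limma adjusted p = 0.00178 and 0.0227), while neither passed without it (both 1.00).

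The third comparison, oxLDL+LPS against LPS, shares its LPS libraries with the comparisons above. Without the block no member passed, with 0% of 12769 genes higher and 0% lower and 890 genes at an unadjusted p under 0.05. With the block, 1 member was higher and 5 were lower, against 4.41% and 8.75% of all genes. The groups did not overlap for 2 members, Pros1 and Timd4, against 12.6% of all genes. Dab2 was lower by 0.76 on the log2 scale, with pool differences of -0.70, -0.60 and -0.97 (block SE 0.09, limma adjusted p = 0.00448). Timd4 differed by -0.67 (pools -0.77, -0.15 and -1.08, limma adjusted p = 0.0506 with the block). With the block, the TAM receptor genes Axl and Mertk were lower too. Axl differed by -0.37 (pools -0.49, -0.01 and -0.59, limma adjusted p = 0.0955 with the block). Mertk differed by -0.35 (pools -0.51, -0.07 and -0.49, limma adjusted p = 0.0637 with the block). The pool of replicate 2 barely moved for either receptor. Pros1 differed by -0.29 (pools -0.25, -0.17 and -0.45, limma adjusted p = 0.0636 with the block). Cd5l was again higher, with 3730, 890 and 2009 normalized counts with oxLDL+LPS against 1791, 658 and 1177 with LPS, and pool differences of 1.06, 0.44 and 0.77 (mean 0.75, limma adjusted p = 0.00805 with the block). Gas6 at 0.10, Trem2 at 0.09, Lrp1 at -0.01 and Mfge8 at -0.13 were not called with or without the block. These calls depend on single pools. Without that of replicate 3 no member was called with the block, without that of replicate 1 only Dab2 was (limma adjusted p = 0.0650), and without that of replicate 2 the count was 6. The adjusted p of Cd5l was 0.362 without replicate 3 and 0.115 without replicate 1.

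**Figure D4:**
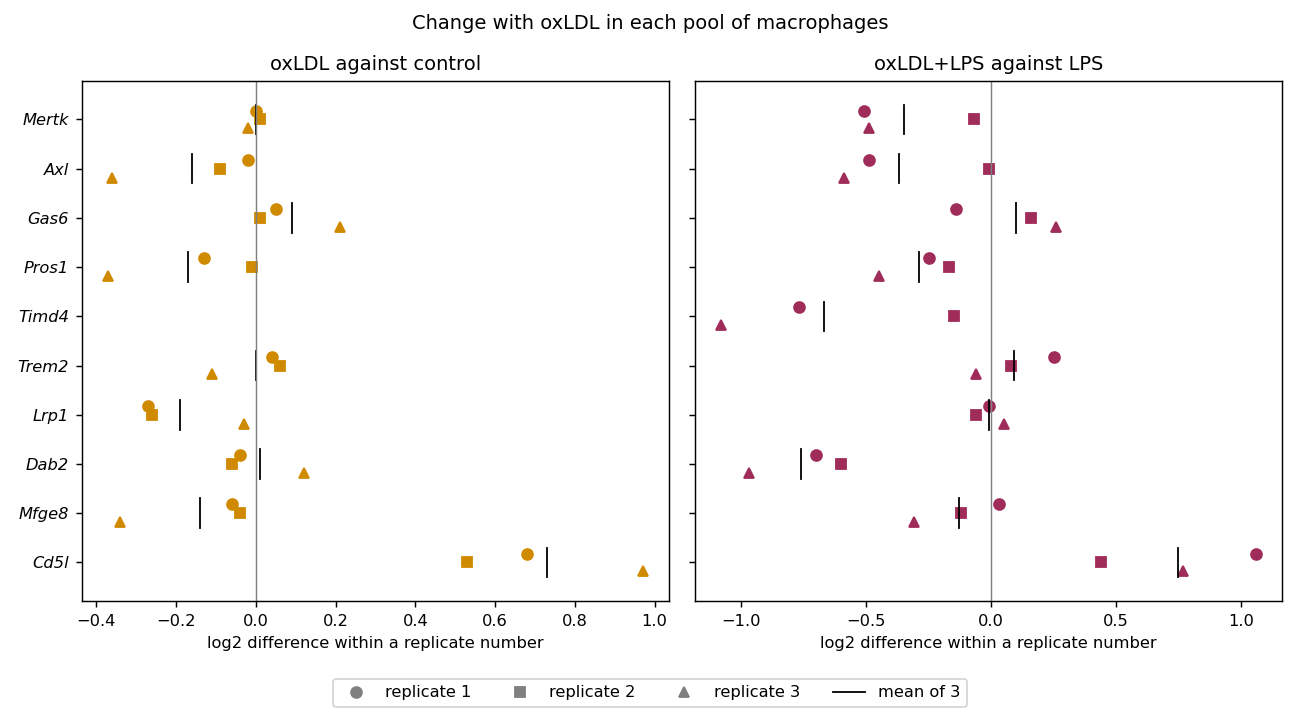
Log2 difference with oxLDL within each pool, in cells without LPS (left) and with LPS (right), for the genes tested (circles, squares and triangles are replicates 1, 2 and 3, and bars are means of 3). Cd5l lies above 0 in all 6 pool differences, Dab2 lies below 0 in all 3 with LPS, and replicate 2 is nearest to 0 for Mertk, Axl and Timd4 with LPS.

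Whether the LPS response differed between cells with and without oxLDL was tested as an interaction over all 12 libraries. No member passed limma without the block (0% of 13465 genes higher and 0% lower, 416 at an unadjusted p under 0.05), and none passed with 1 block per replicate number (967 at an unadjusted p under 0.05). A block for each replicate number within each LPS state, a fit added after the values were seen, called 51 genes higher (0.379%) and 89 lower (0.661%). Among them was 1 member, Dab2, whose rise with LPS was smaller after oxLDL by 0.76 on the log2 scale (limma, SE 0.11, 95% interval -1.0 to -0.53, adjusted p = 0.0376; adjusted p = 1.00 with no block and 0.655 with 1 block per number). In that fit Mertk was at -0.35 (95% interval -0.60 to -0.10, limma adjusted p = 0.195) and Axl at -0.21 (95% interval -0.53 to 0.11). The Lrp1 interval was -0.06 to 0.42, that of Trem2 -0.12 to 0.31 and that of Gas6 -0.25 to 0.25.

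The wider efferocytosis pathway was described with 11 lists of 158 genes in all. LPS moved listed genes in both directions in each list. Over all genes tested 31.4% were higher and 30.3% lower with LPS, and since that is most of the genes tested, the counts below describe the lists and set none of them apart. Of the 148 listed genes tested, 60 were higher and 49 lower, and with the replicate block 64 and 57 (34.6% and 34.1% of all genes). Of 16 tested genes for other receptors of dying cells, 3 were higher and 12 lower with LPS (median log2 fold change -1.11). Havcr2, which encodes TIM-3, fell by 3.99, and the lipid-binding receptor genes Cd300lb and Cd300a fell by 3.39 and 2.94. Cd14, the LPS co-receptor, rose by 3.78, the scavenger receptor gene Scarf1 by 2.62 and the integrin gene Itgav, a partner of MFG-E8, by 1.04. After oxLDL these 6 genes differed with LPS by -3.81, -2.23, -2.23, 3.67, 2.54 and 0.55. The other integrin genes of the list went the opposite way to Itgav. The mean of Itgb3 went from 1388 in control to 199 with LPS, and that of Itgb5 from 6534 to 2228.

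Among the other bridging proteins and opsonins, 4 of 12 were higher and 1 lower with LPS, and 6 and 2 with the block. Thbs1 rose by 3.40, the complement genes C3 by 2.58 and C4b by 1.03, and Anxa1, for a phosphatidylserine-binding annexin, fell by 0.43. Of 7 eat-me and do-not-eat-me genes, 3 were higher and 2 lower. Pilra rose by 5.71, Cd47, the do-not-eat-me signal, by 1.74 and the inhibitory receptor gene Lilrb4a by 1.58, while Cd24a fell by 0.85 and Sirpa, the receptor for CD47, by 0.41. Of 9 find-me genes, 4 were higher and 4 lower, and while Cx3cl1 rose by 2.48, its receptor gene Cx3cr1 fell by 3.71. Cx3cl1 was near the floor in control, with 13, 4 and 2 normalized counts against 25, 24 and 55 with LPS. Cx3cr1 was near it with LPS, with 15, 6 and 1 against 91, 98 and 54 in control. Each passed the minimum through the group where it was high, so the size of its difference depends on the pseudocount. Gpr132, a lysolipid receptor gene, was at 1.80, Sphk1, the kinase that makes sphingosine-1-phosphate, at 1.03, the receptor gene S1pr1 at -1.48 and the nucleotide receptor gene P2ry6 at -1.17.

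Inside the cell, engulfment signaling genes split evenly, with 8 of 19 higher and 8 lower with LPS. Ptk2 (focal adhesion kinase), Crkl and Rac2 rose by 1.20, 1.10 and 1.01, while Arhgef6 fell by 2.46, Gulp1 fell by 1.33 and Elmo2 fell by 1.23. Gulp1 was near the floor, with 24, 25 and 7 normalized counts in control and 10, 5 and 4 with LPS. Of 10 genes of TREM2 and DAP12 signaling, 5 were higher and 3 lower, and 5 and 5 with the block. Ms4a4a, Ms4a6d and the kinase gene Syk rose by 4.06, 3.26 and 1.59, and Inpp5d (SHIP1), Lat2 and Plcg2 fell by 2.11, 1.74 and 0.28. Of 16 genes of LC3-associated phagocytosis and phagosome maturation, 5 were higher and 7 lower. Cybb, an NADPH oxidase subunit, rose by 2.70, Rab5a by 1.21 and Atg16l1 by 0.87, and Atg7 fell by 1.47, the lysosomal nuclease gene Dnase2a by 1.16 and Map1lc3b by 0.90.

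Of 20 regulators of efferocytosis genes and their targets, 10 were higher and 6 lower with LPS, and 10 and 8 with the block. Slc7a11, Cebpb and the cholesterol exporter gene Abca1 rose by 5.05, 2.01 and 1.88, while Pparg fell by 3.59 and Abcg1 fell by 1.33. Shedding proteases and their regulators, which include the enzymes that cut MERTK and AXL from the surface, had 6 of 8 higher and 1 lower with LPS (median 1.61). Mmp14 rose by 3.24, and Rhbdf2 and Rhbdf1, for the iRhom partners of ADAM17, by 2.54 and 2.19, while Adam10 fell by 0.82. Of 14 tested genes in the list of targets and partners of TAM signaling, 7 were higher and 2 lower. Socs3 and Socs1, for inhibitors of cytokine signaling, rose by 6.50 and 6.23, and Grb2 fell by 0.28. The list also held Proz, which does not encode a TAM bridging protein named above. Proz fell by 0.58 from a low level, with 62, 67 and 62 normalized counts in control and 48, 37 and 42 with LPS. Of 17 LRP1 and DAB2 partners, 5 were higher and 3 lower, and 5 and 6 with the block. Plaur, the urokinase receptor gene, rose by 1.60, while Lrp6 fell by 1.11 and Lrp5 fell by 0.77.

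Of the 60 list genes picked for the size of their change with LPS, 33 were higher with LPS and all 33 had a positive LPS difference after oxLDL, from 0.46 to 5.48. Of the 27 that were lower, the 26 tested after oxLDL had a negative difference, from -3.81 to -0.09. Because these genes were picked for a large change with LPS in the same pools, a shared direction was likely in advance. It is given as a description only. With oxLDL alone, the named genes lay between -1.54 and 0.90, and none of the listed genes passed without the block. With the block, 5 of the 146 listed genes tested were higher and 11 lower with oxLDL, against 1.79% and 2.91% of all genes. Of the named genes, 2 were higher and 5 lower, among them Slc7a11 at 0.90 (limma adjusted p = 0.0367), Cx3cr1 at -1.54 (limma adjusted p = 0.00556), Cd24a at -0.95 (limma adjusted p = 0.0129) and Mmp14 at -0.37 (limma adjusted p = 0.00694). In oxLDL+LPS against LPS no listed gene passed without the block, while 14 of 144 were higher and 22 lower with it, against 4.41% and 8.75% of all genes.

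The genes whose pattern over the 12 libraries was most like each member were found by Pearson correlation of log2(value + 1) among 9911 genes, as a description over libraries that share pools and treatments. Axl was closest to AA467197, Tor1aip2 and Snx20 (r = 0.998, 0.998 and 0.997). Mertk was closest to Dse, Nup98 and Nup153 (r = 0.991, 0.990 and 0.990), and Timd4 to 9930111J21Rik2, Aoah and Eng (r = 0.986, 0.985 and 0.984). Among the genes that fell with LPS, Trem2 was closest to Tctn3, E330009J07Rik and Prosc (r = 0.992, 0.991 and 0.991), Lrp1 to Pkd1, Tenm4 and Mxi1 (r = 0.987, 0.984 and 0.983), and Gas6 to Cdk2ap2, Mri1 and 2610020H08Rik (r = 0.987, 0.986 and 0.985). Mfge8 was closest to Ctsa, Naglu and Npy (r = 0.987, 0.984 and 0.981), the first pair encoding lysosomal enzymes. The highest values were lower for Dab2 with Ier2, Ece1 and Slc7a7 (r = 0.958, 0.957 and 0.943), Pros1 with Apba1, Plxna4 and Col4a3bp (r = 0.951, 0.948 and 0.942), and Cd5l with Clpb, Hprt and Gstp1 (r = 0.943, 0.940 and 0.939).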

How the data were processed

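Poly(A) RNA of 12 PMφ libraries was sequenced as paired 150 bp reads from a directional kit. Per the labels and the study's methods, reads were trimmed with Trimmomatic 0.32, aligned to mm10 (GRCm38) with STAR 2.5.1b and counted with featureCounts against GENCODE. The strand setting of the counting is not given in the sources used here. The deposited values are not raw counts: the authors divided each library's counts by 1 factor and rounded, which gives a signal called a normalized count here. Of 43278 symbols, 25 that a spreadsheet had turned into dates were left out (at most 0.165% of a library). Because raw counts were not used here, limma 3.58.1 in R 4.3.3 (lmFit, eBayes with a trend) was run on log2(value + 1) after dropping genes that reached 10 in fewer than 3 of the compared libraries, with Benjamini-Hochberg adjustment over all genes tested and 0.1 as the threshold, as in the study. It was tested on simulated data. Each comparison used its 6 libraries, the interaction all 12. The study's methods say that each pool was divided among the groups, and libraries with the same number deviated together in every pair of groups (correlation 0.305 to 0.733 over 11170 genes), so the number was used as a block as well, and its result is given where it changed a member's call or moved a list's count. Without the block, the p-values measure the spread between the 3 pools of a group. With the block, they measure the spread of the differences within the pools. Levels per kb use the exon length of GENCODE M21, which has the same build, and 4 listed genes were matched through older RefSeq symbols. Alternatives changed the block, pseudocount, filter, scaling, libraries in the fit and variance trend. All 10 members are named in each comparison, and from each list the 3 called genes that rose most and the 3 that fell most with LPS, of which some are not reported here. The members and lists were chosen with earlier results of these data known.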

Additional observations from a re-analysis of the deposited data

Results flagged for a closer look

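Dab2 was singled out because its response to LPS differed between cells with and without oxLDL in a test of the difference itself. The difference was -0.76 on the log2 scale (SE 0.11, limma adjusted p = 0.0376) in the fit with a block for each replicate number within each LPS state, chosen after the values were seen. The pool differences were -0.66, -0.54 and -1.09. No block or 1 block per number gave the same -0.76 with limma adjusted p of 1.00 and 0.655. The call therefore rests only on the fit with a block within each LPS state. Groups of 3 libraries were too small for a search for single libraries that stand apart.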

How the results depend on the processing

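With LPS against control, the members called without the block were called in the same direction under every alternative that tested them. The count was 7 as reported, 6 to 10 over 18 alternatives and 7 to 8 without any 1 library. For oxLDL+LPS against oxLDL it was 6, with 5 to 9 over the alternatives and 5 to 7 without any 1 library. Timd4 was not tested where the filter left it out. For oxLDL against control and for oxLDL+LPS against LPS the count was 0 under every unblocked alternative. The replicate block gave 1 and 6 members and 599 and 1680 genes in place of 0. With the block, leaving out the libraries of replicate 1, 2 or 3 gave 1, 1 and 2 members for oxLDL against control and 1, 6 and 0 for oxLDL+LPS against LPS, a choice made after seeing the data. These fits leave very little spread to measure, so their counts are a description. All 12 libraries in 1 fit called 5 genes higher and 24 lower in oxLDL+LPS against LPS, and leaving out oxLDL+LPS replicate 2 called 62 and 29, none of them members. For the interaction the count was 0, and 1 member with 140 genes under the block within each LPS state. Without oxLDL+LPS replicate 2 the interaction called 6 genes, and with the block and no replicate 2 it called 9. The causes were not tested.

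Values that changed sign were near 0 or had a wide error. With equal library totals Dab2 was -0.01 in oxLDL+LPS against oxLDL and Lrp1 0.08 in oxLDL+LPS against LPS. With a pseudocount of 5 the Timd4 interaction was -0.12 in place of 0.25. With the block and no replicate 3 Dab2 was -0.05 in oxLDL against control, and with no replicate 2 Lrp1 was 0.02 in oxLDL+LPS against LPS. Leaving out single libraries gave Cd5l from -0.73 to 0.03 in LPS against control and from -0.82 to 0.21 after oxLDL. In oxLDL against control it gave Gas6 from -0.02 to 0.25, Mfge8 from -0.38 to 0.05 and Dab2 from -0.10 to 0.09. In oxLDL+LPS against LPS it gave Gas6 from -0.01 to 0.29, Mfge8 from -0.43 to 0.16, Lrp1 from -0.10 to 0.07 and Trem2 from -0.01 to 0.15. The Timd4 interaction ranged from -0.35 to 0.81. With 3 pools, unblocked fits limit what can be seen of differences under 1 on the log2 scale in genes that vary between pools, such as Cd5l and Mfge8.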

Other observations

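The C1q genes, which encode subunits of a complement protein that also bridges dying cells to phagocytes, were looked at after their values were seen. C1qa had 3629, 1624 and 3152 normalized counts with LPS and 2021, 1284 and 1199 with oxLDL+LPS, C1qb had 8223, 3935 and 8600 against 5691, 3452 and 4100, and C1qc had 5536, 2619 and 5246 against 3496, 2133 and 2734. All 9 pool differences were negative. The log2 differences were -0.86, -0.60 and -0.63, with limma adjusted p of 0.0157, 0.0377 and 0.0136 with the replicate block and 0.705, 0.750 and 0.733 without it. The C1q values of replicate 2 were the lowest with LPS. Without LPS, C1qa was also lower with oxLDL, by 0.44 (limma adjusted p = 0.0327 with the block and 1.00 without).

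The LPS targets Il1b and Il6 had lower values in oxLDL+LPS than in LPS. Il1b had 7630, 44508 and 21943 normalized counts against 51068, 85645 and 152939, a log2 difference of -2.16 (limma adjusted p = 0.00792 with the block and 0.699 without). Il6 had 261, 4786 and 2683 against 2135, 9776 and 14906, at -2.18 (limma adjusted p = 0.00619 with the block and 0.748 without). Hmox1 went the other way, with 55988, 12622 and 43842 against 16282, 8326 and 8635, at 1.58 (limma adjusted p = 0.0110 with the block and 0.699 without). Replicate 2 had the smallest difference for all 3 genes, as it did for Mertk, Axl, Timd4 and Dab2.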
